A study of Mus musculus with 8 samples.

Results

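The protein genes of the cytosolic ribosome were compared between Phf6 R342X mutant and wild-type mouse cortex. Members were chosen by symbol alone: every gene named Rpl, Rps or Rplp with a number and at most 1 closing letter a, l, x or y, counted over its protein-coding transcripts. The rule gave 79 genes (30 of the small and 49 of the large subunit, with 220 protein-coding transcripts) of 21784 symbols with a protein-coding transcript. Of these 79, 76 passed the filter on low counts and were tested, beside 15300 genes in all. Rpl3l, Rpl10l and Rpl39l did not pass.

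Messenger RNA libraries came from flash frozen brain cortex of newborn mice (P0) on the FVB/N background. One group of 4 libraries carried the R342X mutation in Phf6 and the other 4 were wild type. Phf6 lies on the X chromosome and encodes a nuclear PHD finger protein, and the study asked how this mutation changes cortical gene expression. The labels name no animal, sex, litter or batch behind a library, so the replicate spread behind each p-value could be technical only.

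Each ribosome holds 1 copy of most of these proteins, wrapped around the ribosomal RNAs, and cells keep the supply of the subunit proteins roughly balanced. Their messenger RNAs are among the most abundant in growing cells and start with a run of pyrimidines, the terminal oligopyrimidine (TOP) motif, through which mTORC1 and LARP1 control their translation and stability. The family is also known for its many processed pseudogenes, intronless genomic copies of the messenger RNA, which share most of their sequence with the functional gene.

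Estimated reads ran from 30469745 to 74266937 per library, and every wild-type library was deeper than every mutant library. Phf6 stood at 47.1, 43.7, 47.3 and 49.2 CPM (counts per unit of depth after TMM scaling) in mutant replicates 1 to 4 and at 102, 87.1, 83.0 and 81.8 in wild-type replicates 1 to 4. Phf6 was lower in the mutants by edgeR's quasi-likelihood test (log2 fold change -0.92 ± 0.08, SE, Benjamini-Hochberg adjusted p = 0.00235), and its groups did not overlap. Summed levels of 10 cortical markers lay between 1262 and 1363 TPM (a level per transcript length, scaled to 1 sum in every library) in mutants and between 1398 and 1496 in wild types. The first principal component of all tested genes (35.4% of the variance) divided the libraries across genotype: set 1 holds mutant replicates 1 to 3 and the first wild type, and set 2 holds the other 3 wild types and mutant replicate 4. These sets are no labelled batch, and the members are among the genes that define them.

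The sequences of 4 members and of their closest copy are shown first, because the share of reads assigned to each of the pair differed most between libraries there. Coding sequences were read from GENCODE M21 transcripts of GRCm38, a C57BL/6J-based genome, whereas the mice were FVB/N. Capitals mark the bases that differ between the member and the copy, and positions are counted from 1 at the A of the start codon, with the member's base first. Rpl34, a large subunit protein (chr3:130726831-130730398, minus strand), and the processed copy Rpl34-ps1 (chr6:71124610-71124963, plus strand) have coding sequences of 354 bases and differ at 2 of them, T132C and C318G. The window runs from coding position 107 to 343 and holds both.
Rpl34: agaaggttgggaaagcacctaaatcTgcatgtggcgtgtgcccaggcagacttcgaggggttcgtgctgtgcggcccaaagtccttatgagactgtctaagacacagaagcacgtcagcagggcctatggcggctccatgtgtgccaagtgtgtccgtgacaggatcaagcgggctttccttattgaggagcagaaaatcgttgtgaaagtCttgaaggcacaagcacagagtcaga
Rpl34-ps1: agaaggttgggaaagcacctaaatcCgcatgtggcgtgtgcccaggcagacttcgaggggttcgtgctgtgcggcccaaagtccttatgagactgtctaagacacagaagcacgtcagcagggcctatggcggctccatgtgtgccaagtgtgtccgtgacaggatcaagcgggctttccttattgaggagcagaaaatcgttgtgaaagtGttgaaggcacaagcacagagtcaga

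Rpl35a, a large subunit protein whose gene is mutated in some families with Diamond-Blackfan anaemia (chr16:33056453-33060189, plus strand), and Rpl35a-ps2 (chr1:181241988-181242320, minus strand) differ at 1 of 333 bases, G156A. Rpl30, a large subunit protein that binds its own transcript in yeast (chr15:34440505-34443640, minus strand), and Gm12191 (chr11:49678710-49679057, minus strand) differ at 1 of 348 bases, G96A. The windows run from coding position 131 to 181 and from 71 to 121.
Rpl35a: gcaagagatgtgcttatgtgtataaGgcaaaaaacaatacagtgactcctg
Rpl35a-ps2: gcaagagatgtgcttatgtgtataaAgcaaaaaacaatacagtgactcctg
Rpl30: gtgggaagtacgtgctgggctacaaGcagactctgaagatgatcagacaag
Gm12191: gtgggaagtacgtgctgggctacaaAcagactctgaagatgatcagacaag

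Rpl3, a protein next to the peptidyl transferase centre (chr15:80077791-80091868, minus strand), and Rpl3-ps1 (chrX:13202571-13203780, plus strand) differ at 2 of 1209 aligned bases, C57A and T786C. The windows start at coding positions 32 and 761.
Rpl3 from 32: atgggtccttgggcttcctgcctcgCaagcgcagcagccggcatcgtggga
Rpl3-ps1 from 32: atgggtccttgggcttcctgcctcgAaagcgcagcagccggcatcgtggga
Rpl3 from 761: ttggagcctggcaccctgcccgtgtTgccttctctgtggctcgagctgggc
Rpl3-ps1 from 761: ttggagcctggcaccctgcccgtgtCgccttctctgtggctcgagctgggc

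No member passed edgeR's test in either direction, against 0.0196% of all genes (3 genes, all lower, Phf6 among them). DESeq2 called 1 member, Rpl34, where 1.31% of all genes were called lower, and limma-voom 0, against 0.0196% of all genes. Of the 76 tested members, 74 had a fold change below 0 (97.4%), against 47.9% of all genes tested. The members' median log2 fold change was -0.13 and that of all genes was 0.01. At an unadjusted p under 0.05 stood 7 members, 6 of them lower, where 14.2% of all genes stood in either direction and 6.72% on the lower side. The small subunit (29 of 30 below 0) and the large subunit (45 of 46 below 0) each had a median of -0.13. Most shifts were small: 73 of 76 lay between -0.3 and 0.

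**Figure D1:**
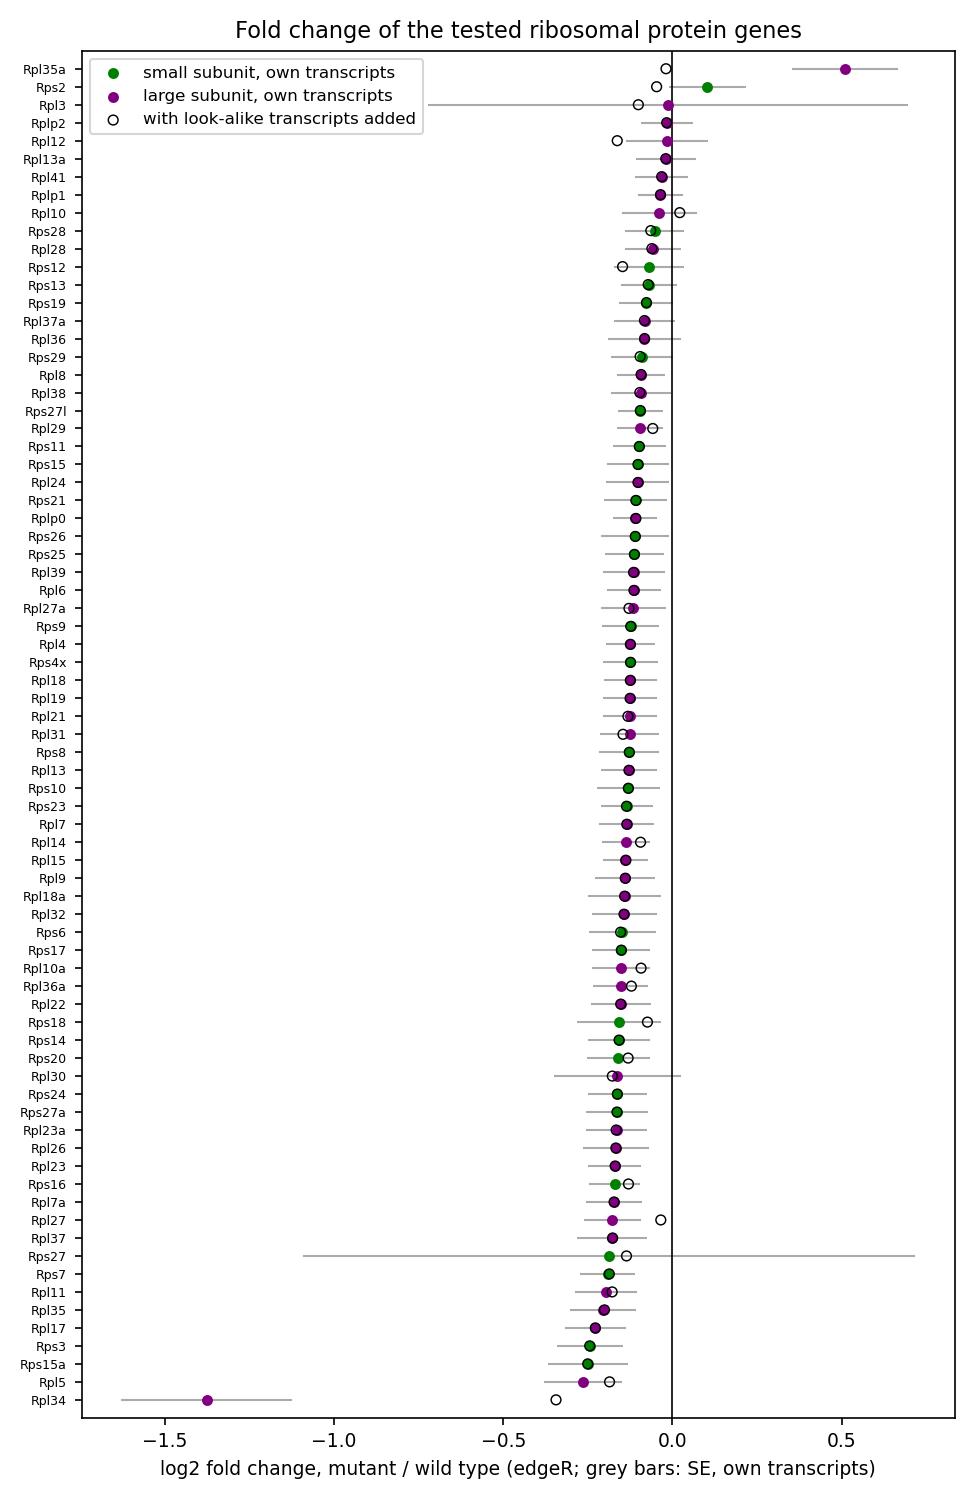
Log2 fold change, mutant over wild type, of 75 of the 76 tested members from edgeR, with SE as grey bars. Filled points use the member's own protein-coding transcripts and open circles add the reads of look-alike transcripts. All but 2 filled points lie below 0, and with look-alike reads added Rpl34 and Rpl35a lie at -0.34 and -0.02.

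The fold changes below 0 went with the library sets, which were drawn from these same expression values. Across the 76 members, the median deviation of log2 CPM from the gene's own mean was -0.14, -0.17, 0.00 and 0.06 in mutant replicates 1 to 4 and -0.16, 0.09, 0.09 and 0.23 in wild-type replicates 1 to 4. Wild-type replicate 1 thus lay with the low mutants and mutant replicate 4 with the high wild types, so the genotypes overlapped. With genotype held, set 2 was higher than set 1 in 71 of 76 members, by a median of 0.23, where the median over all genes was 0.00. With the set as a term beside genotype, the members' median genotype difference was -0.01 and 45 of 76 lay below 0; 0 members were called, against 0.333% of all genes. Within set 1 the mutants were higher than the single wild type in 64 of 76 members (median 0.05), and within set 2 the single mutant was lower in 69 of 76 (median -0.08). The direction thus differed between the sets, each of which holds 1 library of the rarer genotype. Set and genotype largely coincide, so their parts in these differences cannot be told apart. The set term can also take up a difference that belongs to genotype.

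**Figure D2:**
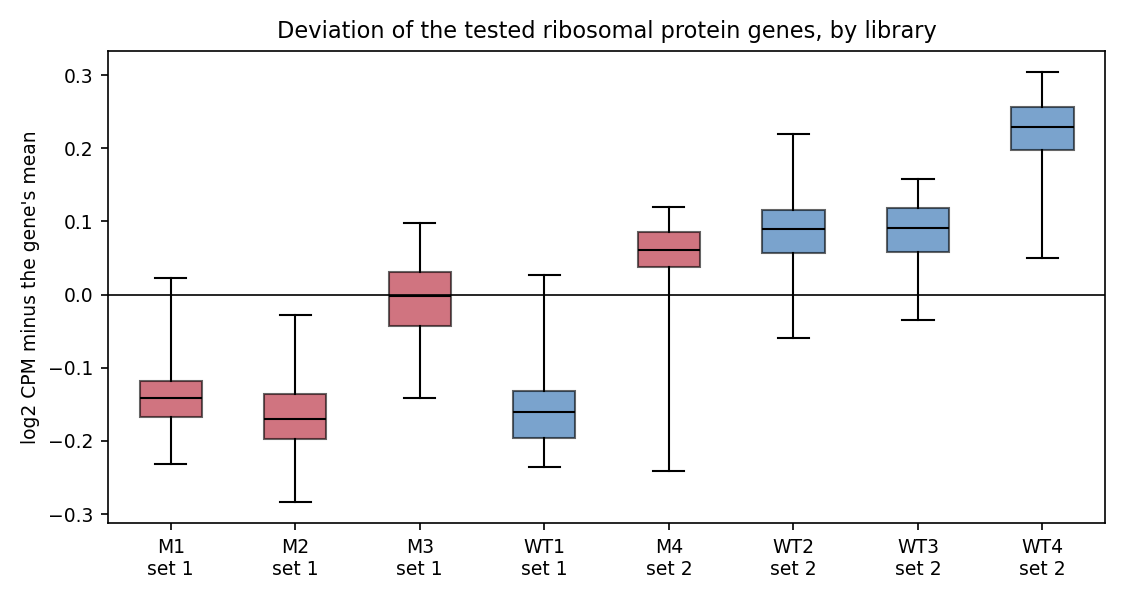
Deviation of log2 CPM from each gene's mean over the 8 libraries, for the 76 tested members, in mutant (red, M) and wild-type (blue, WT) libraries ordered by set. Boxes span the quartiles with the median as a line, and whiskers the 5th to 95th percentile. Medians run from -0.17 in mutant replicate 2 to 0.23 in wild-type replicate 4, and wild-type replicate 1 lies with mutant replicates 1 and 2.

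Summed over the 79 members, ribosomal protein messenger RNA held 61744, 60070.3, 65148 and 64982 TPM in mutant replicates 1 to 4 (62986 ± 2497, SD, n = 4). Wild-type replicates 1 to 4 held 60875, 64888, 66506 and 69267 TPM (65384 ± 3508, SD, n = 4). The mutant mean was lower by less than the spread of the wild types, and the groups overlapped. The sum was 6.01% to 6.93% of all TPM. Small subunit genes gave 25603 ± 1214 TPM in mutants and 26678 ± 1677 in wild types, and large subunit genes 37383 ± 1315 and 38707 ± 1832 (SD, n = 4 each).

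Levels spread widely between the genes, from listed zeros up to the level of Rpl41. Rpl41, the smallest ribosomal protein, and Rplp1, an acidic protein of the stalk, were the most abundant, with means over the 8 libraries of 2370.4 and 2286 TPM. Rpl23a, at the exit of the peptide tunnel, and Rps24, a small subunit protein tied to Diamond-Blackfan anaemia, followed with 1928 and 1852 TPM. Rps24 stood at 1774, 1671, 1850.1 and 1842 TPM in mutant replicates 1 to 4 and at 1790.0, 1876, 1933 and 2079.7 in wild-type replicates 1 to 4. Mutants and wild types overlapped, and its log2 fold change of -0.16 did not pass the test (edgeR adjusted p = 0.401). At the low end, Rpl10l, a retrogene paralog known from the testis, was listed at 0 TPM in every library. Rpl39l, also known from the testis, reached at most 0.174 TPM, and Rpl3l, the paralog of striated muscle, at most 0.0986 TPM. Rps27l, a p53-responsive paralog of Rps27, was the paralog that was tested, at 115 ± 4.51 TPM in mutants and 118 ± 2.14 in wild types (SD, n = 4).

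**Figure D3:**
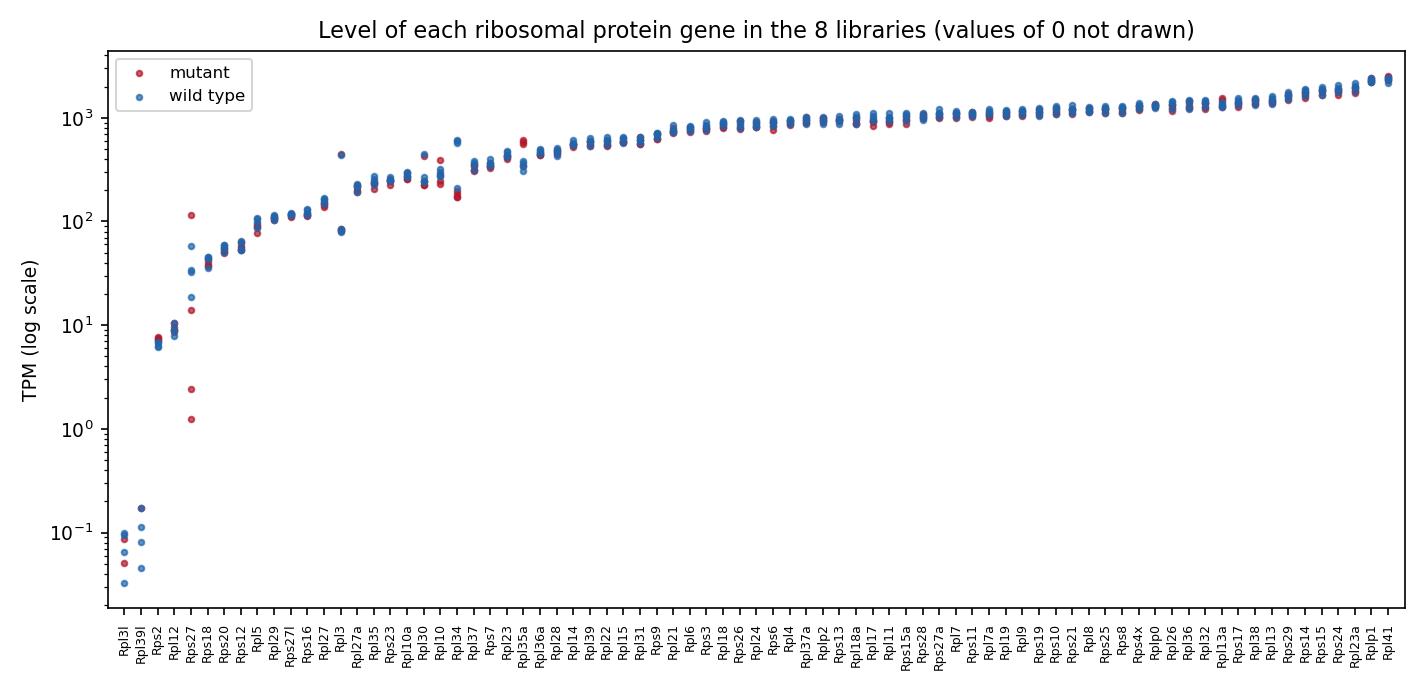
TPM on a log axis of the members with a value above 0, with 1 left out, in the 4 mutant (red) and 4 wild-type (blue) libraries, ordered by mean level. Rpl41 and Rplp1 lie highest, and Rps27, Rpl3, Rpl34, Rpl35a and Rpl30 stand out by their spread between libraries.

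Rpl34 had the largest difference in the family. It stood at 34.2, 34.9, 37.8 and 42.4 CPM in mutant replicates 1 to 4 and at 102.5, 119.5, 119.0 and 46.4 in wild-type replicates 1 to 4. All mutants were lower than every wild type, but wild-type replicate 4 lay close to the mutants and far from the other wild types. Among the 76 members it was the only one whose groups did not overlap in the lower direction, against 3.29% of all genes, and 0 members did so in the higher direction, against 3.37%. Its log2 fold change of -1.38 ± 0.25 (SE) did not pass the test by edgeR's quasi-likelihood method (adjusted p = 0.162). DESeq2 called it (-1.38, adjusted p = 0.00184), as it did 1.31% of all genes with lower values. Without wild-type replicate 4 edgeR also called it (-1.61, adjusted p = 0.000209, with 0.0262% of all genes called lower). In the authors' deposited table Rpl34 had an adjusted p of 0.0224 with a log2 fold change of -0.02. It was the only one of 76 listed members under 0.05, where 1.32% of that table's genes were called lower. Of those 76 members, 47 had a fold below 0 there and 29 above, with a median of -0.003. The edgeR fit used here had 74 of 76 below 0, and that near-uniform direction was not present in the deposited folds. The deposited Rpl34 fold was smaller in size than its SE of 0.06, so that fold and SE alone do not give its p. Whether the deposited folds were shrunk toward 0 is not given in the sources used here.

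Rpl34-ps1, the copy printed above, was high where Rpl34 was low. It stood at 81.7, 78.9, 98.2 and 101.8 CPM in mutant replicates 1 to 4 and at 41.6, 53.4, 51.1 and 114.1 in wild-type replicates 1 to 4. Of the reads assigned to the pair and its other look-alikes, Rpl34 itself took 27.7% to 30.5% in the 4 mutants and in wild-type replicate 4 28.8%, but 69.0% to 71.0% in wild-type replicates 1 to 3. With look-alike reads added, Rpl34 gave 115.7, 113.7, 135.9 and 144.0 CPM in the mutants and 143.8, 172.4, 169.7 and 160.5 CPM in the wild types, in replicate order. The groups then overlapped by mutant replicate 4 and wild-type replicate 1, and the log2 fold change was -0.34 ± 0.09 (edgeR adjusted p = 0.200). Even so, -0.34 was the lowest of the 76 members on that scale.

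Rpl35a had the largest fold change above 0. It stood at 99.9, 98.9, 112.2 and 65.0 CPM in mutant replicates 1 to 4 and at 53.3, 66.6, 68.1 and 75.9 in wild-type replicates 1 to 4. Mutant replicates 1 to 3 were high and mutant replicate 4 lay among the wild types (log2 fold change 0.51 ± 0.16, edgeR adjusted p = 0.256). Its share of the reads of the gene and its look-alikes was 74.7% to 76.4% in mutant replicates 1 to 3 and 46.4% to 48.0% in the other 5 libraries. With look-alike reads added, the fold change was -0.02 ± 0.10 (edgeR adjusted p = 0.939). Without mutant replicate 4, edgeR called 2 members from their own transcripts. Rpl35a was then higher (0.64, adjusted p = 0.0274, with 1.62% of all genes called higher) and Rpl34 lower (-1.45, adjusted p = 0.0362, with 1.89% called lower).

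Rpl3 and Rpl30 showed the same step between 2 levels, in a mutant and a wild-type library alike. Rpl3 held 57.3, 317.3, 61.6 and 62.7 CPM in the mutants and 312.6, 64.2, 60.9 and 65.5 CPM in the wild types, in replicate order. Mutant replicate 2 and wild-type replicate 1 were high, with 57.5% and 55.8% of the family's reads on Rpl3, where the other 6 libraries had 9.80% to 10.5%. Rpl30 was high in the same libraries, with shares of 74.5% and 75.1% against 45.8% to 48.1% elsewhere. The Rpl3 and Rpl30 genes are both on chromosome 15, and their copies Rpl3-ps1 and Gm12191 are on chromosomes X and 11. With look-alike reads added, the fold change of Rpl3 was -0.10 ± 0.06 on the log2 scale (SE; edgeR adjusted p = 0.438).

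**Figure D4:**
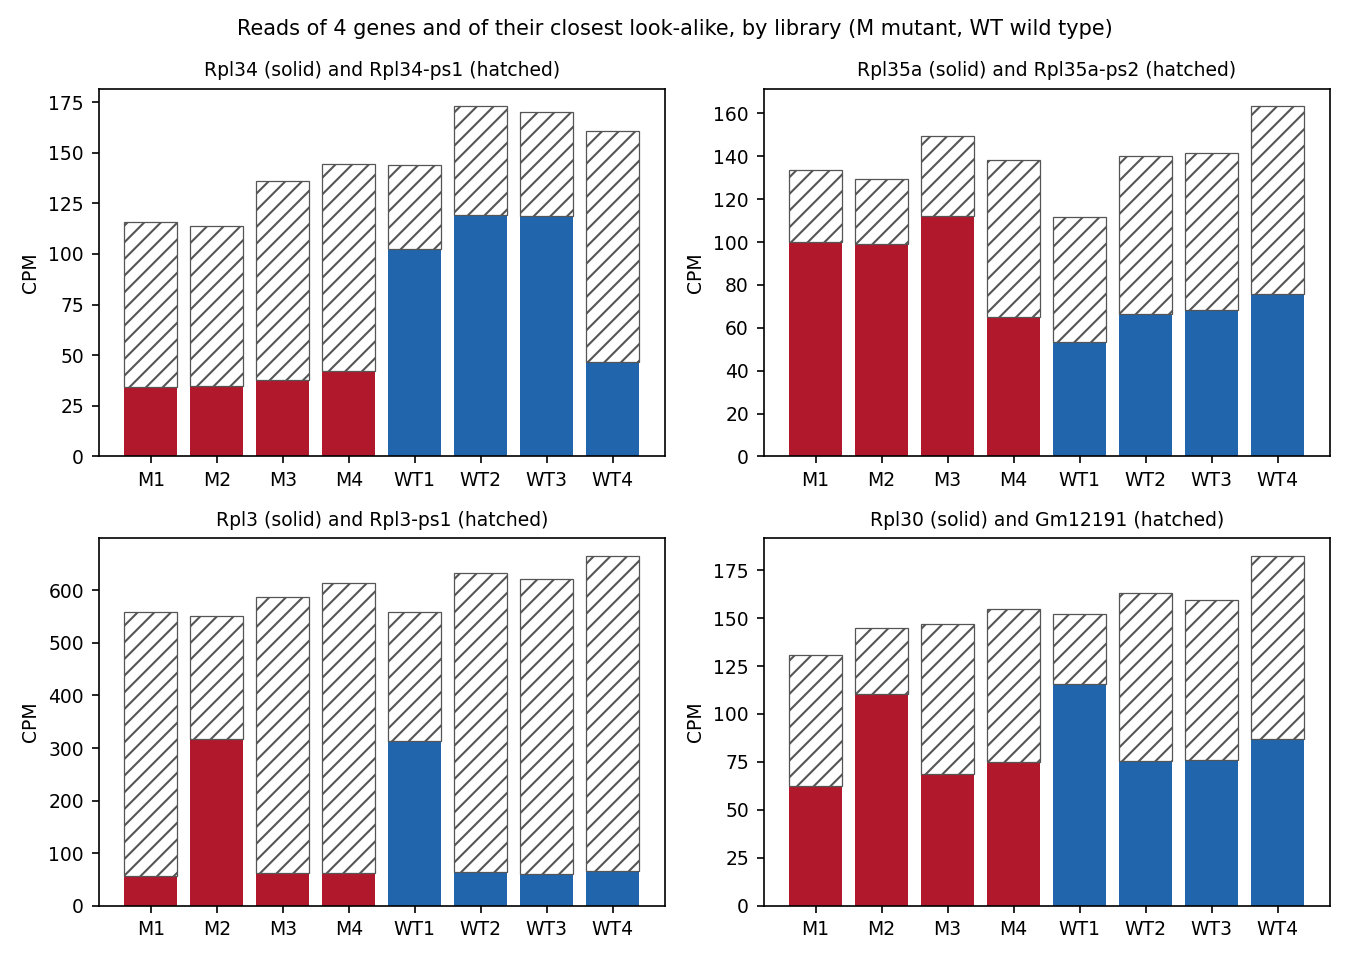
CPM of Rpl34, Rpl35a, Rpl3 and Rpl30 (solid, red mutant, blue wild type) by library. Only the closest look-alike, named in each panel, is stacked on top (hatched). The solid part steps between 2 levels while the whole column varies less; Rpl34 is low in all mutants and in wild-type replicate 4.

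These 4 were the members whose share of the family's reads varied by over 20 percentage points between libraries. Look-alikes, transcripts of other symbols with at least 90% identity to the coding sequence, existed for 74 of the 79 members and numbered 950. Together they held 27.2% to 29.1% of the TPM of members and look-alikes in the 8 libraries. For 47 members at least 95% of the reads stayed on the member, and for 15 members under 50% did. Rps2, of the mRNA entry region, kept 0.466%, Rpl12, of the stalk base, 1.99%, Rps27 2.06%, Rps18 3.27% and Rps12 3.93%. The TPM given here for these 5 genes leaves out the reads on their copies, as for Rps2 with a mean of 6.97 TPM over the 8 libraries and Rpl12 with 9.26. Adding look-alike reads left the family's median at -0.12, with 75 of 76 members below 0 and 0 called, against 0.0196% of all genes. No member's groups then stayed apart, against 3.28% of all genes lower and 3.37% higher.

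Rps27, a zinc finger protein of the small subunit, had the widest spread. It stood at 117, 13.9, 1.26 and 2.45 TPM in mutant replicates 1 to 4 and at 58.4, 32.8, 34.4 and 18.5 in wild-type replicates 1 to 4. The mutants spanned both sides of the wild types. Rps27rt, an intronless coding gene, took most reads of that family. With look-alikes added Rps27 gave 172 ± 15.8 CPM in mutants and 189 ± 26.6 in wild types (SD, n = 4).

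Of the X-linked members, on the same chromosome as Phf6, all 4 had fold changes below 0 and none passed the test. Rps4x, a small subunit protein, stood at 1258 ± 51.9 TPM in mutants and 1302 ± 71.8 in wild types. Rpl39, at the exit tunnel, stood at 572 ± 26.6 and 591 ± 42.2 TPM, and Rpl36a, near the exit site for transfer RNA, at 448 ± 16.0 and 478 ± 22.2 TPM. Rpl10, needed for subunit joining, stood at 289 ± 71.5 and 293 ± 22.8 TPM (SD, n = 4 throughout). Mutant replicate 1 was highest for Rpl10 (391 TPM) and mutant replicate 4 lowest (232 TPM), so the mutants spanned the wild types. The direction turned for 2 of the 4: Rpl10, which kept 23.9% of its family's reads, lay at 0.022 on the log2 scale with look-alikes added, and Rpl39 at 0.014 once the set was added to the fit.

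The stalk proteins, which recruit translation factors, lay closest to 0 among the classes. Rplp0 had a log2 fold change of -0.11, Rplp1 of -0.04 and Rplp2 of -0.02. Rpl5 and Rpl11, which with 5S ribosomal RNA form the particle that binds Mdm2, lay lower, at -0.26 ± 0.12 and -0.20 ± 0.09 (SE; edgeR adjusted p = 0.345 and 0.366). Rpl5 stood at 88.1, 77.8, 89.7 and 95.6 TPM in mutant replicates 1 to 4 and at 85.8, 105, 99.2 and 107 in wild-type replicates 1 to 4. Wild-type replicate 1 lay among the mutants. Rpl5 kept 18.6% of its family's reads, and its fold change was -0.19 with look-alikes added.

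Among the other members with the lowest fold changes, wild-type replicate 1 also lay among the mutants in Rps3, Rps15a, Rpl17 and Rpl35. Rps3, of the mRNA entry channel, held 395, 396, 437 and 448 CPM in the mutants and 407, 529, 472 and 578 CPM in the wild types, in replicate order (log2 fold change -0.24, edgeR adjusted p = 0.313). Again wild-type replicate 1 lay among the mutants, while the other wild types were higher than all of them. Rps15a (-0.25), Rpl17 of the peptide exit tunnel (-0.23) and Rpl35 of the same site (-0.21) did not pass either (edgeR adjusted p = 0.367, 0.313 and 0.372). Rps2 was the only tested member besides Rpl35a with a fold above 0 (0.10), and lay at -0.05 with look-alikes added.

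Members varied little against each other once the library's own level was removed. After subtraction of each library's member mean, the SD of log2 TPM over the 8 libraries was smallest for Rpl36a, Rps16, Rpl23 and Rpl15, at 0.04 each. It was 2.21 for Rps27, 1.15 for Rpl3, 0.85 for Rpl34 and 0.43 for Rpl35a. By class, all 9 exit tunnel members lay below 0 (median log2 fold change -0.15), as did 7 of 8 members of the decoding and mRNA channel (-0.13) and 18 of 19 members mutated in Diamond-Blackfan anaemia (-0.15). Rps27a, made as a fusion with ubiquitin, lay at -0.16. The family's own median was -0.13.

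The transcripts used within a gene were compared next. For 29 members the second protein-coding transcript held at least 5% of the gene's TPM, and the share of the leading transcript was compared by exact two-sided permutation. One member of 29, Rplp0, had the smallest p this design allows (exact p = 0.0286), and none passed after Benjamini-Hochberg adjustment (0.552 for Rplp0). Over all genes with such a second transcript, 1.04% had shares that were lower in every mutant than in every wild type. Its leading transcript Rplp0-201 held 56.8% ± 0.818 of the gene's TPM in mutants and 59.9% ± 1.14 in wild types (SD, n = 4). The largest shifts were in Rpl10-202, at 55.6% ± 8.77 in mutants and 47.2% ± 2.78 in wild types, and Rps18-201, at 58.7% ± 18.1 and 53.8% ± 7.59 (SD, n = 4). Rpl27-202 held 56.6% ± 3.29 and 52.6% ± 2.03, and Rps3-205 33.7% ± 1.54 and 37.3% ± 3.81 (SD, n = 4). The genotypes overlapped in these 4 (adjusted exact p = 0.592 to 0.858). Rpl10, Rps18 and Rpl27 kept 23.9%, 3.27% and 69.6% of their families' reads, so their transcript shares rest on the reads not assigned to copies. Rps24, whose last exons are spliced differently between tissues, was led by Rps24-202 at 1705 ± 88.2 TPM in mutants and 1831 ± 123 in wild types. Rps24-201 stood at 33.4, 50.7, 35.8 and 46.9 TPM in the mutants and 54.0, 53.6, 54.9 and 47.6 in the wild types. Mutant replicates 1 and 3 were lowest and mutant replicates 2 and 4 lay nearer the wild types.

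Protein-coding transcripts held 91.8% to 92.5% of the members' reads, and the rest fell on retained-intron and other non-coding transcripts of the same symbols. This share did not overlap between genotypes in 1 of 69 members with lower values in mutants (0.956% of all genes) and in 3 with higher values (2.57%). Rps7, the lower one, had 94.6% ± 1.07 in mutants and 96.3% ± 0.349 in wild types (SD, n = 4). Among the higher ones, Rpl35a had 93.9%, 93.0%, 94.1% and 87.0% in mutants and 86.4%, 84.4%, 86.6% and 86.5% in wild types, in replicate order. Mutant replicate 4 lay next to the wild types, as it did for the level of Rpl35a. The protein-coding reads in this share are the same reads that stepped against Rpl35a-ps2. The share of Rpl35a is therefore not separate from that step. Rps7 and Rpl35a were named here after their values were seen.

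The members' start sites were searched for a TOP-like tract, and whether a tract goes with the fold changes was not tested. The search took a C followed by at least 4 pyrimidines, starting within 5 bases of the annotated start on the sense strand, in RefSeq promoters of GRCm38.p6. Of 59 members with an entry, 28 held one (47.5%), against 23.6% of tested genes and 18.3% of all promoters. Only the annotated start was searched, so a member without a hit may still hold a tract at another start. The windows of the 4 most abundant members with a tract and of Rpl34 run from 30 bases before to 20 after the start, with the tract in capitals. They lie at chr14:24490648-24490697 (plus), chr11:114668550-114668599 (plus), chr7:45128726-45128775 (minus), chr2:180257349-180257398 (plus) and chr3:130730379-130730428 (minus).
Rps24: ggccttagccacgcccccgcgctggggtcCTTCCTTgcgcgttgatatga
Rpl38: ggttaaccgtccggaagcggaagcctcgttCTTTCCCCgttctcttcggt
Rpl13a: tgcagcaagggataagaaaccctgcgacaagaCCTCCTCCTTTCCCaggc
Rps21: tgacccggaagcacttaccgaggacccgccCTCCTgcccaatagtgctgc
Rpl34: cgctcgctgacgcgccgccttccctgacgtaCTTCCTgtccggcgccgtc

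Other genes of the translation machinery were counted beside the members, and none was called. Translation factors with TOP messenger RNAs lay below 0 in 20 of 21 genes, with a median log2 fold change of -0.12; Eif3e, a subunit of initiation factor 3, had the smallest p (-0.18, edgeR adjusted p = 0.258). Cytosolic ribosomal protein genes whose symbols the rule missed, such as Rpsa, Rack1 and Rps3a1, lay below 0 in 8 of 9, with a median of -0.10. Genes of LARP1 and mTORC1 control lay below 0 in 12 of 18 (median -0.05), ribosomal protein chaperones and importers in 8 of 13 (-0.01), and RNA polymerase I genes in 8 of 12 (-0.06). Mitochondrial ribosomal proteins, which build a separate ribosome, lay below 0 in 46 of 78 (median -0.03). All genes tested had 47.9% below 0.

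Other measures differed between the genotypes or between the library sets. In bulk tissue, fewer cells of a type and less RNA per cell cannot be told apart. Markers of dividing progenitors lay below 0 in 12 of 12 genes (median -0.20) and those of radial glia and intermediate progenitors in 9 of 10 (median -0.22). Dividing progenitor markers summed to 179 to 216 TPM in mutants and 206 to 224 in wild types. The highest sum was in wild-type replicate 1, where the ribosomal protein genes were low. The lowest sum was in mutant replicate 2, where the ribosomal protein genes were lowest. Summed radial glia and intermediate progenitor markers were 219 to 252 TPM in mutants and 259 to 265 in wild types. Astrocyte markers lay above 0 in 7 of 8 genes (median 0.28), with sums of 690.1 to 797 TPM in mutants and 539 to 661 in wild types. Oligodendrocyte lineage markers lay above 0 in 7 of 7 genes (median 0.19), and microglia and macrophage markers in 8 of 8 (median 0.13). Mitochondrially encoded genes lay below 0 in 12 of 13 (median -0.21). By set, oligodendrocyte lineage markers summed to 175 to 182 TPM in set 1 and 129 to 152 in set 2. Retained-intron transcripts held 3.67% to 3.87% of reads in set 1 and 4.05% to 4.22% in set 2, and mitochondrially encoded genes 7.73% to 8.25% and 8.32% to 9.52% of TPM. Cortical markers lay below 0 in 7 of 10, and their sums, given above, did not overlap between genotypes. The part of cell makeup, RNA quality and depth in the members' differences was not tested.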

How the data were processed

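Strand use is not given in the sources used here. Per the labels' protocols, RNA was extracted with TRIzol and made into libraries with NEBNext dual adapters. Per the submitters' processing notes, Salmon 0.12.0, DESeq2 and GRCm38 were used. The deposited library files give an estimated count per transcript, not rounded to whole numbers, and TPM scaled by effective length, per the file headers. Salmon divides reads that fit several transcripts by a model, so estimates of near-identical genes depend on one another. The authors' deposited table gives a mean normalized signal, a log2 fold change and a p-value per gene, per its header.

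Estimated counts were summed per symbol over protein-coding transcripts and rounded. Such transcripts held 88.8% to 90.1% of reads. Genotypes were compared over all 15300 genes that passed edgeR's default filter (edgeR 4.0.16, R 4.3.3, TMM, quasi-likelihood F test, Benjamini-Hochberg, calls at adjusted p under 0.05). The test was tried on counts simulated gene by gene at the means, depths and dispersions of these libraries. Look-alikes were transcripts of other symbols matched by BLASTN 2.17.0 (at least 90% identity over 80% of one sequence and 50% of the other), added after the data were seen. Library sets followed the sign of principal component 1 over log2 CPM with a prior count of 2. Alternatives were DESeq2 1.42.0, limma-voom (limma 3.58.1), other filters, scalings and transcript sums, the library set or replicate block as a term, and leaving out each library.

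Values of 1 member are not reported here; counts and medians include it. Members and gene lists were chosen with earlier results of these data known. Named genes were Phf6, Rpl34 with its copies, called members and the up to 6 members per direction with the largest fold. The 4 with the highest and lowest TPM and the 4 with the largest and smallest relative SD were also named. So were the X-linked, stalk, 5S particle, paralog and ubiquitin-fusion members, and the 4 largest transcript shifts with Rps24. The gene with the smallest p was planned for each list, but its values are given only for translation factors with TOP messenger RNAs. Rpl30, Rpl12 and Rps12 were named after their read shares were seen, and classes are described by counts and medians without a set test.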

Additional observations from a re-analysis of the deposited data

Results flagged for a closer look

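For 28 named members, Phf6 and the members' summed TPM, each genotype's 4 libraries were examined, and 4 of 60 groups held a library far from the other 3. Chance gives such a library in about 1 in 20 groups, but that rate does not apply to Rpl3, Rps27 and Rps16, which were named for their large or small spread between libraries. Rpl3 was high in mutant replicate 2 (317.3 CPM) and in wild-type replicate 1 (312.6 CPM), where the other 6 libraries lay between 57.3 and 65.5 CPM, and Rpl3-ps1 was low in both. Rps27 was high in mutant replicate 1 (10.98 CPM), where the other mutants lay at 1.38 CPM or lower. Rps16, a small subunit protein, was high in mutant replicate 4 (70.5 CPM), where the other mutants lay between 62.7 and 63.4 CPM, and that library lay in set 2 with 3 wild types. Rps16 kept 37.3% of its family's reads.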

How the results depend on the processing

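Phf6 remained lower and called under every alternative run (log2 fold change -0.96 to -0.84 on leaving out libraries). The count of called genes was 3, but 4 with all transcripts, 51 with the library set as a term, 8 with the replicate block, 364 with DESeq2, and 3 to 544 on leaving out each library. Called members numbered 0, but 1 with DESeq2 and 0 to 2 on leaving out libraries: 2 when mutant replicate 4 was dropped and 1 when wild-type replicate 4 was. The members' median stayed below 0 under every alternative, from -0.19 to -0.08 on leaving out libraries, at -0.12 with the replicate block and at -0.01 with the library set, where 45 members lay below 0. Replicate numbers did not pair the libraries (correlations of same-numbered deviations 0.24, -0.06, -0.08 and 0.27), and the replicate block called 0 members.

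Some small differences reversed. Rps2 lay at -0.0096 with all transcripts, at -0.0469 with named pseudogenes and at -0.0466 with look-alikes added. With named pseudogenes and with look-alikes added, Rpl10 lay at 0.0219 and 0.0217, and Rpl35a at -0.0180 and -0.0189. With the library set as a term, Rpl39 lay at 0.0138, Rpl41 at 0.0769, Rplp1 at 0.0397, Rplp2 at 0.0906 and Rps18 at 0.00518. On leaving out libraries, Rpl3 ran from -1.05 to 0.97, Rps27 from -2.64 to 0.20, Rpl10 from -0.173 to 0.0240, Rpl41 from -0.0980 to 0.00559, Rplp1 from -0.0843 to 0.00754 and Rplp2 from -0.0776 to 0.0294. The cause was not tested. Rps2 did not pass the stricter filter. Mutant libraries were shallower, so a low member at a given CPM rests on fewer reads there. Data over 15300 genes were simulated gene by gene for this comparison. There edgeR called 95 of 100 genes changed by 1 on the log2 scale and 68 of 100 changed by 0.5, with 12 false calls. Most members' shifts were smaller. Whether these rates hold in the measured libraries, which divide into sets across genotype, was not tested. In the measured libraries Rpl34, at -1.38, did not pass edgeR's test (adjusted p = 0.162).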
